A study of Mus musculus with 6 samples.

Results

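The cyclin-dependent kinase (CDK) inhibitors of the mouse fall into the CIP/KIP family (*Cdkn1a*, *Cdkn1b* and *Cdkn1c*) and the INK4 family (*Cdkn2a*, *Cdkn2b*, *Cdkn2c* and *Cdkn2d*). Their expression was examined in N2A cells, a mouse neuroblastoma line, after transient knockdown of *Paupar*, a long noncoding RNA transcribed from upstream of *Pax6*. A gene was followed where the array annotation assigned a transcript cluster, the probe group that stands for 1 transcript, to that symbol alone, and of several such clusters the one with the highest mean over all arrays was used. This gave 6 of the 7 inhibitor genes, out of 19938 named genes. *Cdkn1a*, which encodes the p53-induced inhibitor p21, shares its only cluster with another symbol and was not analysed here.

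The 2 groups were 3 cultures transfected with a *Paupar* knockdown construct and 3 cultures transfected with a non-targeting control vector, each with 1.5 µg of plasmid in medium with 10% serum. All cultures came from the same cell line, and total RNA was taken 2.5 days after transfection and hybridised to 6 whole-transcript arrays, 1 culture per array. Transfection was transient, so each value is an average over cells that took up the plasmid and cells that did not, and no source used here gives the share of the first. The knockdown construct expresses a short hairpin RNA from a U6 promoter. The hairpin that the study names for this experiment, sh408, is shown because it defines the knockdown group. Its loop, the terminator run of T and the last base C are in capitals, and the strands of the stem in lower case. As printed, these strands differ in length and the bases next to the loop do not pair. The design places the stem within *Paupar*.
Pauparsh408FOR: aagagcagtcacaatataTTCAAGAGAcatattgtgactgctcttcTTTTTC

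CDK inhibitors are brakes of the cell cycle. INK4 proteins bind the kinases CDK4 and CDK6 and keep D-type cyclins from activating them, which leaves the retinoblastoma protein RB in its form that restrains E2F transcription factors. CIP/KIP proteins bind complexes of cyclins with CDK2 and block entry into S phase, and they also help assemble complexes of D-type cyclins with CDK4. In the developing nervous system several of these proteins accompany the exit of progenitors from the cell cycle, with *Cdkn1b*, *Cdkn1c*, *Cdkn2c* and *Cdkn2d* best known for this role.

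The values are log2 RMA values, so a difference of 1 is a doubling. The table holds no detection call, so it is not known whether a low value lies above background, and the number of arrays limits the precision. Array medians over the named genes lay between 7.85 and 7.92, and correlations between arrays over all clusters between 0.986 and 0.994. Of the neuroblastoma marker list, 12 of 14 genes were measured. The sympathetic lineage factor *Hand2* averaged 11.94 in knockdown and 12.04 in control cells and the secretory granule gene *Chga* 12.78 in knockdown and 13.12 in control cells. *Dbh*, *Th* and *Chgb* of this list fell, none rose, 7 did not pass and 2 varied too little to be tested. Of all genes tested 5.16% fell and 2.39% rose. The summed log2 value of the list lay between 130.4 and 132.3 on knockdown arrays, against 133.7 to 134.4 on control arrays. No gene passed the test among 7 measured fibroblast, 6 glial and 5 blood markers. Of these, 1, 5 and 3 varied too little over the arrays and were not tested, and 7.54% of all genes tested changed. The summed log2 values were 50.2 to 51.4 on knockdown and 49.8 to 52.7 on control arrays for fibroblast markers. They were 42.04 to 42.44 on knockdown and 41.1 to 42.44 on control arrays for glial markers, and 32.06 to 33.18 on knockdown and 31.79 to 32.1 on control arrays for blood markers. The part of any of these in the results below was not tested. No cluster was assigned to *Paupar*, so the depth of its knockdown was not analysed in these samples.

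One of the inhibitor genes, *Cdkn2c*, rose upon *Paupar* knockdown, and no other measured member passed the test. *Cdkn1b* was lower on every knockdown array than on any control array, by a smaller difference that missed the threshold. The values of *Cdkn1c*, *Cdkn2a*, *Cdkn2b* and *Cdkn2d* overlapped between the groups. All knockdown arrays lay above or all below the control arrays in 2 of the 6 measured members, and in 23.5% of the named genes. For the test, genes in the lower 50% by interquartile range over the 6 arrays were set aside. The 9969 that stayed hold 3 of the 6 members, *Cdkn1b*, *Cdkn2b* and *Cdkn2c*. Of the 9969 genes, 7.54% changed (limma, Benjamini-Hochberg adjusted p under 0.05). Rises made up 2.39% and falls 5.16%. One member of 3 tested is a count too small to read against these shares.

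**Figure D1:**
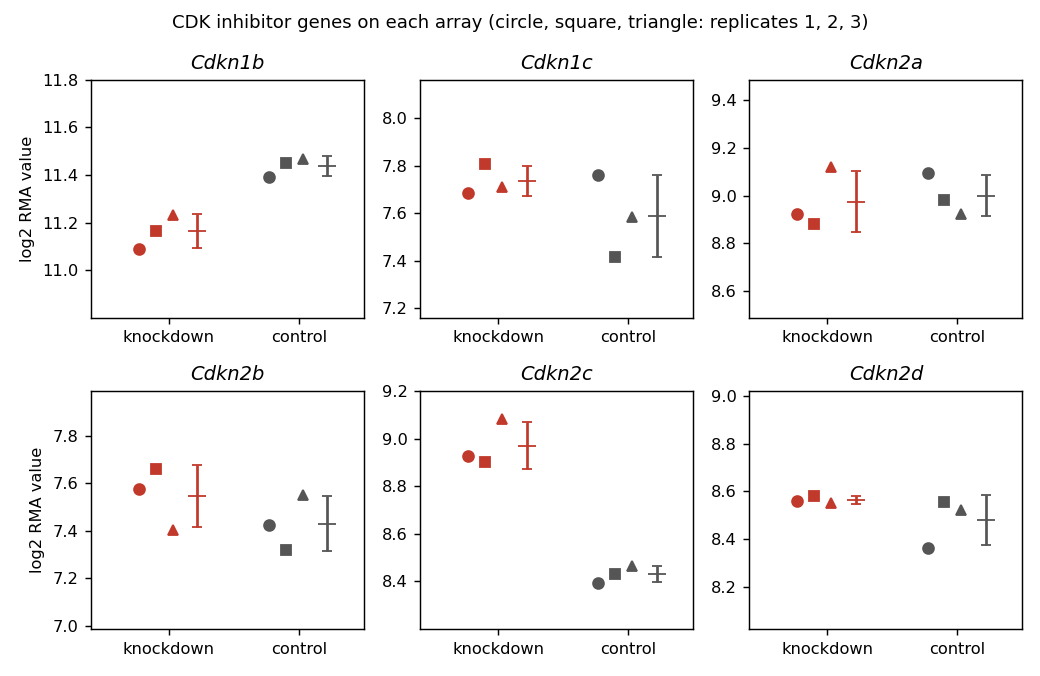
Log2 RMA value (y axis) of the 6 measured CDK inhibitor genes on each knockdown (red) and control (grey) array; circles, squares and triangles are replicates 1, 2 and 3, bars give the mean and SD (n = 3), and every panel spans 1 log2 unit. *Cdkn2c* lies between 8.90 and 9.08 on knockdown arrays and between 8.39 and 8.46 on control arrays, and *Cdkn1b* lies apart in the opposite direction.

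*Cdkn2c* encodes the INK4 protein p18, an inhibitor of CDK4 and CDK6. Its log2 value was 8.93, 8.90 and 9.08 on knockdown arrays 1, 2 and 3, against 8.39, 8.43 and 8.46 on control arrays 1, 2 and 3. The lowest knockdown array stood 0.44 above the highest control array, a gap wider than the range within the knockdown group (0.18) or the control group (0.07). The mean was 8.97 ± 0.10 in knockdown cells and 8.43 ± 0.03 in control cells (SD, n = 3 each), a 1.45-fold rise (log2 difference 0.54, SE 0.12, 95% interval 0.29 to 0.79, limma adjusted p = 0.0154). An exact two-sided permutation test over the arrays gave p = 0.1, the smallest that 3 arrays against 3 allow. In whole cultures, a higher level in each cell and a larger share of cells with that level cannot be told apart. The gene varied more over the arrays than most, at the percentile 97.0 of interquartile ranges. Its rise was the one of rank 113 among the 238 genes that rose, close to their median of 0.53. The call did not hold in every fit that left out 1 array. It was kept without control array 1, control array 2 or knockdown array 3 (limma adjusted p = 0.0437, 0.0248 and 0.0210). Without control array 3, knockdown array 1 or knockdown array 2 it was lost (limma adjusted p = 0.0710, 0.0539 and 0.0579). The log2 difference stayed between 0.48 and 0.57 in these fits. Over all genes, the fits that lost the call left 112, 194 and 139 genes past the threshold, against 752 with all arrays. The call was also lost when all transcript clusters were tested (limma adjusted p = 0.156), a setting in which 0 clusters passed and 3015 had an unadjusted p under 0.05.

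The promoter windows of *Cdkn2c*, from 250 bases before to 50 bases after an annotated start, are shown because it is the member that passed the test, and that of *Cdkn1b* because it lay apart in the other direction. The sequences are those of RefSeq on GRCm38.p6, which holds 2 starts for *Cdkn2c*, and the array cluster does not tell which was used. GC boxes, the letters GGGCGG on either strand, are in capitals.
Cdkn2c, upstream start, chr4:109666707-109667006, minus strand: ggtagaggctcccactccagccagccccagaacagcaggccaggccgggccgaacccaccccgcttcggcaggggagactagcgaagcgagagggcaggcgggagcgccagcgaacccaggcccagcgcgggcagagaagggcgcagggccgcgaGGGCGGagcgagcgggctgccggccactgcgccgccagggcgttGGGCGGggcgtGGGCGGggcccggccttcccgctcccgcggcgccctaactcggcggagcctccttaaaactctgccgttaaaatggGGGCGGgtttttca
Cdkn2c, downstream start, chr4:109665323-109665622, minus strand: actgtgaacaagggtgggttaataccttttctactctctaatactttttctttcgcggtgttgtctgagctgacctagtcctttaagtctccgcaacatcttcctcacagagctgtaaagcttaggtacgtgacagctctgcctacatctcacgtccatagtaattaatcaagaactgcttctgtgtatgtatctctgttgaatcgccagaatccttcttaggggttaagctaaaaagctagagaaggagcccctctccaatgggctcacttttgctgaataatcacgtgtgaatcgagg
Cdkn1b, chr6:134920151-134920450, plus strand: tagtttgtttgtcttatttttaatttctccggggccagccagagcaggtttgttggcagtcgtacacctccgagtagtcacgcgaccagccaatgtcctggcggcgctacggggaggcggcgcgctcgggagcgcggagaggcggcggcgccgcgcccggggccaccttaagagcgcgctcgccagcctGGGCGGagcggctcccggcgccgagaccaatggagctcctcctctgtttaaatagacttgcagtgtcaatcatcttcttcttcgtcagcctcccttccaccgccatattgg

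The upstream window of *Cdkn2c* held 4 GC boxes and was 73.3% G and C, while the downstream window held 0 and was 44.0% G and C. The median over all promoter windows was 52.7% G and C. The window of *Cdkn1b* was 62.0% G and C and held 1 GC box and 3 CCAAT boxes, the letters CCAAT on either strand. The downstream window of *Cdkn2c* held 1 CCAAT box and the upstream window 0. Windows were found for 6 of the 7 members, 9 in all, and *Cdkn1c* had none among them. A GC box was present in 7 of these 9 windows and in 35.7% of all 32851 promoter windows, and a CCAAT box in 4 of 9 and in 37.4%. The strict E2F motif (TTTCCCGC, TTTCGCGC, TTTGGCGC or TTTGCCGC on either strand) was present in 1 of the 9 windows, that of the upstream start of *Cdkn2a*, and in 2.26% of all windows. A FOXO motif (TGTTTAC on either strand) was in 0 of the 9 and in 3.65% of all windows. An E2F motif can overlap a GC box in part of its letters. These are matches of letters and not measured sites.

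*Cdkn2d*, which encodes the INK4 protein p19 and is expressed in postmitotic neurons, was nearly even on the knockdown arrays. It stood at 8.56, 8.58 and 8.55 on knockdown arrays 1, 2 and 3, against 8.36, 8.56 and 8.52 on control arrays 1, 2 and 3. Control replicate 1 was low and the other two control arrays stood beside the knockdown arrays. The groups overlapped by 0.0036, and the mean was 8.56 ± 0.02 in knockdown and 8.48 ± 0.10 in control cells (SD, n = 3 each). *Cdkn2d* did not pass the variation filter, with an interquartile range at the percentile 1.36. In the limma fit to all named genes, of which 3.07% passed, its log2 difference was 0.08 (95% interval -0.10 to 0.27, adjusted p = 0.646), so a rise of the size seen for *Cdkn2c* lay outside its interval. Without control replicate 1 the difference was 0.02.

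*Cdkn2a* and *Cdkn2b* lie side by side on chromosome 4. *Cdkn2a* encodes both the INK4 protein p16 and, in another reading frame, ARF, which stabilises p53, and its single cluster does not separate these products. Its log2 value was 8.92, 8.88 and 9.12 on knockdown arrays 1, 2 and 3, against 9.09, 8.98 and 8.92 on control arrays 1, 2 and 3. The difference was -0.03 (95% interval -0.24 to 0.19, adjusted p = 0.917 in the limma fit to all named genes), and knockdown replicate 3 was the highest array of all. The direction turned when control array 1 (0.02), knockdown array 1 (0.00098) or knockdown array 2 (0.02) was left out. *Cdkn2a* missed the variation filter narrowly, with an interquartile range of 0.145 against a limit of 0.149.

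*Cdkn2b* encodes the INK4 protein p15, an inhibitor induced by TGF-beta in epithelial cells. Its log2 value was 7.57, 7.66 and 7.40 on knockdown arrays 1, 2 and 3, against 7.42, 7.32 and 7.55 on control arrays 1, 2 and 3. Knockdown replicates 1 and 2 stood above all control arrays and knockdown replicate 3 among them. The mean was 7.55 ± 0.13 in knockdown and 7.43 ± 0.12 in control cells (SD, n = 3 each), a difference of 0.11 that was smaller than the spread within either group (95% interval -0.15 to 0.38, limma adjusted p = 0.579).

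*Cdkn1b* encodes p27, the CIP/KIP inhibitor that holds cells in quiescence. Its log2 value was 11.09, 11.17 and 11.23 on knockdown arrays 1, 2 and 3, against 11.39, 11.45 and 11.47 on control arrays 1, 2 and 3. All knockdown arrays stood below all control arrays, with a gap of 0.16 between the groups. Such separation in either direction was seen in 31.1% of the 9969 genes tested. The mean was 11.16 ± 0.07 in knockdown and 11.44 ± 0.04 in control cells (SD, n = 3 each), a log2 difference of -0.27 (SE 0.11, 95% interval -0.52 to -0.03, limma adjusted p = 0.147), 1.21-fold lower in knockdown cells. The exact permutation p was 0.1. A second cluster of *Cdkn1b* read 7.86, 7.46 and 7.59 on knockdown arrays 1, 2 and 3, against 7.90, 8.42 and 7.83 on control arrays 1, 2 and 3. There knockdown replicate 1 stood above control replicate 3, and the difference was -0.41 (exact permutation p = 0.2). *Cdkn1b* passed only where arrays were weighted by their spread (limma adjusted p = 0.00318), a setting in which 55.8% of genes passed.

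*Cdkn1c* encodes p57, an imprinted CIP/KIP inhibitor that limits growth of the embryo. Its log2 value was 7.69, 7.81 and 7.71 on knockdown arrays 1, 2 and 3, against 7.76, 7.42 and 7.59 on control arrays 1, 2 and 3. Control arrays spread over 0.34 and knockdown arrays over 0.12, and control replicate 1 lay within the knockdown values. The difference was 0.15 (95% interval -0.08 to 0.38, adjusted p = 0.483 in the limma fit to all named genes), and it was 0.06 without control replicate 2 and 0.23 without control replicate 1.

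**Figure D2:**
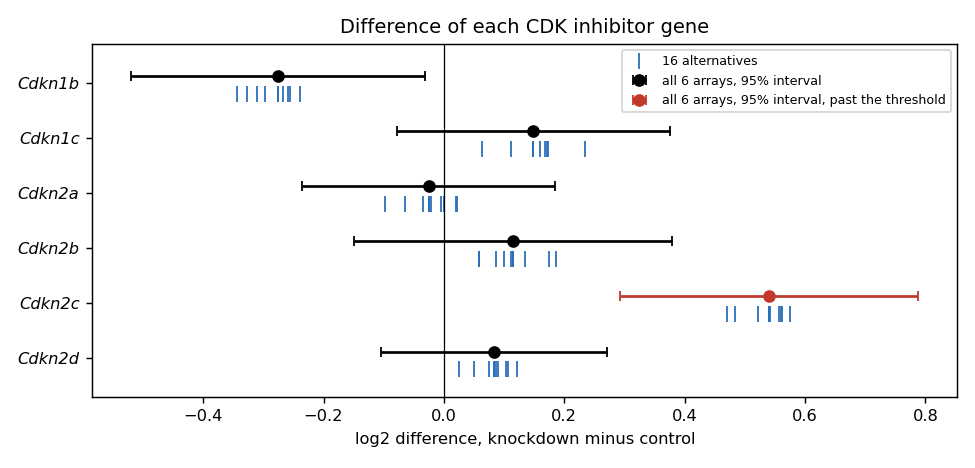
Log2 difference, knockdown minus control (x axis), of the 6 measured CDK inhibitor genes (y axis); points and bars give the value and 95% interval over all 6 arrays, red where the threshold was passed, and blue ticks give the values under 16 alternative settings. *Cdkn2c* stays between 0.47 and 0.57 and *Cdkn1b* between -0.34 and -0.24 under all of these settings, while *Cdkn2a* has ticks on both sides of 0.

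Passing the test in 1 gene and not in another does not show that they differ, so the change of *Cdkn2c* was set against that of each other member within each array. This was chosen after the values were seen. The change of *Cdkn2c* exceeded that of *Cdkn1b* by 0.82 on the log2 scale, of *Cdkn2a* by 0.57, of *Cdkn2d* by 0.46, of *Cdkn2b* by 0.43 and of *Cdkn1c* by 0.39. In each of the 5 pairs the knockdown arrays lay above all control arrays, and each exact two-sided permutation test gave p = 0.1 (0.1 after adjustment over the 5 pairs), the smallest possible here. In all 5 pairs this outcome was fixed by the values already given, whichever arrays were set together. *Cdkn2c* lay above and *Cdkn1b* below the control arrays on every knockdown array. For each other member, the highest knockdown array exceeded the lowest control array by less than the gap of *Cdkn2c*, 0.44. These tests could therefore not have come out otherwise. All 5 pairs reuse the values of *Cdkn2c*, the member with the widest gap between the groups. They describe the arrays and are no independent support for a difference between members.

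The proteins that the inhibitors bind were followed as a list of 17 cyclins, CDKs and subunits of the kinase that activates CDKs, 16 of which were measured. Of these, 4 rose, none fell, 7 did not pass and 5 were removed by the filter, where 2.39% of all genes tested rose and 5.16% fell. The median log2 difference was 0.13, with 12 genes higher and 4 lower in knockdown cells. Over all named genes 11649 were higher and 8289 lower. Those that rose were *Cdk2*, *Ccne2*, *Ccna2* and *Ccnd3*. The cyclin gene *Ccne1* differed by 0.47 and missed the threshold (limma adjusted p = 0.0621). Its groups did not overlap, which held in either direction for 31.1% of the genes tested. *Cdk4* and *Cdk6*, the kinases that INK4 proteins bind, did not pass the filter and so were not tested.

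*Cdk2*, the kinase that CIP/KIP proteins block, stood at 10.89, 10.79 and 10.89 on knockdown arrays 1, 2 and 3, against 10.10, 10.45 and 10.40 on control arrays 1, 2 and 3. It rose 1.45-fold (log2 difference 0.53, SE 0.13, adjusted p = 0.0236), with no overlap. *Ccne2*, which encodes the cyclin E2 partner of that kinase at S phase entry, stood at 10.97, 10.95 and 10.71 on knockdown arrays, against 9.58, 10.38 and 10.24 on control arrays. It rose 1.75-fold (adjusted p = 0.0163), and control replicate 1 was far below the other control arrays. *Ccna2*, the cyclin A gene of S phase and mitosis, rose 1.37-fold (13.15 ± 0.05 in knockdown and 12.69 ± 0.08 in control cells, SD, n = 3 each, adjusted p = 0.0305). *Ccnd3*, a D-type cyclin gene, rose 1.38-fold (10.38 ± 0.02 in knockdown and 9.91 ± 0.22 in control cells, adjusted p = 0.0454). In the limma fits that left out 1 array, *Ccne2* passed in 3 of 6 (adjusted p up to 0.0735), *Cdk2* in 2 (up to 0.0919), *Ccna2* in 2 (up to 0.151) and *Ccnd3* in 0 (0.0534 to 0.161). All 4 calls were lost without control array 3 and without either of knockdown arrays 1 and 2, and those of *Cdk2*, *Ccna2* and *Ccnd3* also without control array 1.

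*Cdk4*, a target of INK4 proteins, averaged 13.47 ± 0.11 in knockdown and 13.40 ± 0.15 in control cells, and *Cdk6*, the other target, 6.29 ± 0.03 in knockdown and 6.21 ± 0.07 in control cells (SD, n = 3 each). *Ccnd1*, the D-type cyclin gene with the log2 difference nearest to 0 among the 3, averaged 12.17 ± 0.16 in knockdown and 12.22 ± 0.15 in control cells, and *Ccnd2* 7.38 ± 0.09 in knockdown and 7.21 ± 0.19 in control cells. The groups overlapped for all 4 of these genes.

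**Figure D3:**
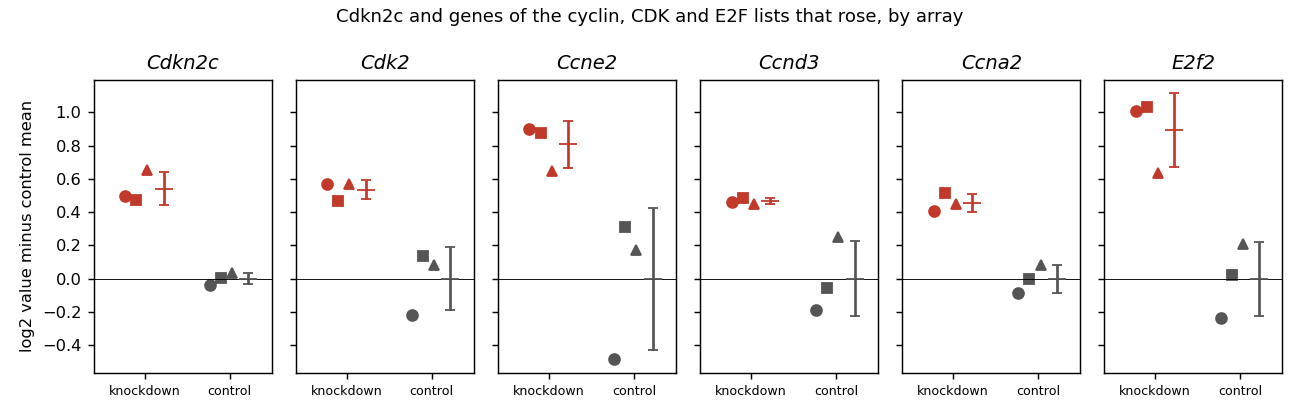
Log2 value relative to the control mean (y axis) of *Cdkn2c* and 5 genes of the cyclin, CDK and E2F lists that rose, on knockdown (red) and control (grey) arrays; circles, squares and triangles are replicates 1, 2 and 3, and bars give the mean and SD (n = 3). Knockdown replicate 3 is the highest knockdown array for *Cdkn2c* and the lowest for *Ccne2* and *E2f2*, and control arrays differ less for *Cdkn2c* (SD 0.03) than for *Ccne2* (SD 0.43).

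Downstream of the kinases, the RB and E2F family had 13 measured genes, of which 6 rose, none fell, 5 did not pass and 2 were removed by the filter (median log2 difference 0.32), beside rises in 2.39% and falls in 5.16% of all genes tested. *E2f2*, an activating E2F gene, stood at 10.28, 10.30 and 9.90 on knockdown arrays 1, 2 and 3, against 9.03, 9.29 and 9.48 on control arrays 1, 2 and 3, a 1.86-fold rise (adjusted p = 0.00364). *E2f7*, a repressing member, rose 1.68-fold (adjusted p = 0.00654). *E2f2* and *E2f7* passed in all 6 limma fits that left out 1 array. The dimerization partners *Tfdp2* and *Tfdp1* rose 1.51-fold and 1.44-fold (adjusted p = 0.0123 and 0.0197), passing in 3 and 2 of these fits, and both were lost without control array 3 and without either of knockdown arrays 1 and 2, *Tfdp1* also without control array 1 (adjusted p up to 0.0705 and 0.101). Of the pocket protein genes, *Rbl2* was removed by the filter and *Rb1* and *Rbl1* did not pass. *Rb1* averaged 9.70 ± 0.31 in knockdown and 9.77 ± 0.16 in control cells, and *Rbl1* 9.98 ± 0.04 in knockdown and 9.75 ± 0.10 in control cells (SD, n = 3 each). All knockdown arrays of *Rbl1* lay above all control arrays (limma adjusted p = 0.215), and 31.1% of the genes tested were separated in either direction.

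CIP/KIP proteins are controlled to a large extent by degradation, which RNA levels of the inhibitor genes do not show. Of 17 measured genes of this machinery 1 rose and 1 fell, 10 did not pass and 5 were removed by the filter (median 0.17), against 7.54% changed of all genes tested. *Dtl*, which in human cells directs p21 to a ubiquitin ligase on replicating DNA, averaged 11.88 ± 0.11 in knockdown and 11.28 ± 0.34 in control cells (SD, n = 3 each), a 1.51-fold rise (adjusted p = 0.0332). *Uhmk1*, a kinase that phosphorylates human p27 and promotes its export from the nucleus, stood at 10.79, 10.81 and 10.79 on knockdown arrays 1, 2 and 3, against 11.18, 11.21 and 11.22 on control arrays 1, 2 and 3. It fell by 0.40 on the log2 scale (adjusted p = 0.0435), with no overlap between the groups. *Skp2* and *Cks1b*, whose products recognise p27 for degradation, averaged 10.86 ± 0.10 and 12.04 ± 0.06 in knockdown cells, against 10.50 ± 0.14 and 11.67 ± 0.22 in control cells. Both did not pass (limma adjusted p = 0.0875 and 0.0948). All knockdown arrays lay above all control arrays for both, and 31.1% of the genes tested were separated in either direction. *Dtl* passed in 2 and *Uhmk1* in 1 of the 6 limma fits that left out 1 array (adjusted p up to 0.122 and 0.160). Dropping any 1 of control arrays 1 and 3 and knockdown arrays 1 and 2 ended both calls, and dropping control array 2 ended that of *Uhmk1*.

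Of the genes that act on transcription of the inhibitors, many varied too little over the arrays to be tested, and counts are read against the 7.54% of all tested genes that changed. Of 17 measured regulators of CIP/KIP genes, which included p53 relatives, FOXO and SMAD factors and MYC proteins, 1 rose and none fell, 4 did not pass and 12 were removed by the filter (median 0.06). The one that rose was *Klf4*, which encodes an activator of *Cdkn1a* (9.04 ± 0.07 in knockdown and 8.63 ± 0.07 in control cells, SD, n = 3 each, 1.33-fold, adjusted p = 0.0465). *Trp53* was not analysed here. Of 28 measured regulators of INK4 genes, mainly Polycomb proteins, ID and ETS factors and T-box repressors, 1 rose and none fell, 13 did not pass and 14 were removed by the filter (median 0.10). The one that rose was *Ezh2*, the methyltransferase of Polycomb repressive complexes that silences the *Cdkn2a* locus in dividing cells (12.40 ± 0.07 in knockdown and 11.95 ± 0.08 in control cells, 1.37-fold, adjusted p = 0.0336). *Klf4* passed in 1 and *Ezh2* in 2 of 6 limma fits that left out 1 array (adjusted p up to 0.192 and 0.151), and both calls were lost when any of control arrays 1 and 3 and knockdown arrays 1 and 2 was dropped, that of *Klf4* also when control array 2 was.

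*Cdkn1a* is the classical target of p53, and although it was not analysed here, other p53 target genes were. Of 25 measured targets 3 fell, 1 rose, 11 did not pass and 10 were removed by the filter (median 0.06), where 5.16% of all genes tested fell and 2.39% rose. *Ccng1*, which encodes cyclin G1, stood at 10.21, 10.17 and 10.55 on knockdown arrays 1, 2 and 3, against 10.93, 11.25 and 11.18 on control arrays 1, 2 and 3 (adjusted p = 0.00425). *Btg2*, an antiproliferative gene, averaged 7.95 ± 0.32 in knockdown and 8.75 ± 0.20 in control cells (SD, n = 3 each, adjusted p = 0.0111). *Trp53i11* fell by 1.31 on the log2 scale (adjusted p = 0.00277), and *Apaf1*, a gene of the apoptosome, rose 1.38-fold (adjusted p = 0.0451). *Mdm2*, which encodes the ubiquitin ligase of p53, averaged 11.27 ± 0.01 in knockdown and 11.25 ± 0.08 in control cells. *Trp53i11* passed in all 6 limma fits that left out 1 array, *Ccng1* missed the threshold only without control array 3 (adjusted p = 0.0549), and *Btg2* and *Apaf1* passed in 2 of the 6 (adjusted p up to 0.0735 and 0.210), which were those without control array 2 and without knockdown array 3.

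Of 12 measured genes of a list of other CDK regulators and genes named after a CDK inhibitor, 0 passed by limma (4 had an unadjusted p under 0.05), 8 did not pass and 4 were removed by the filter. The largest differences were those of *Cdk2ap2* (0.38, limma adjusted p = 0.0620) and *Cdkn2aipnl* (0.34, limma adjusted p = 0.108), the second of which is named for its likeness to a protein that binds ARF and not for binding a CDK. *Cdkn3*, a phosphatase gene that carries the name of the family and is no member of it, averaged 8.86 ± 0.06 in knockdown and 9.01 ± 0.21 in control cells (SD, n = 3 each). In total, the median log2 difference over the 6 measured CDK inhibitor genes was 0.10, with 4 genes higher and 2 lower in knockdown cells, and over all named genes 11649 were higher and 8289 lower.

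**Figure D4:**
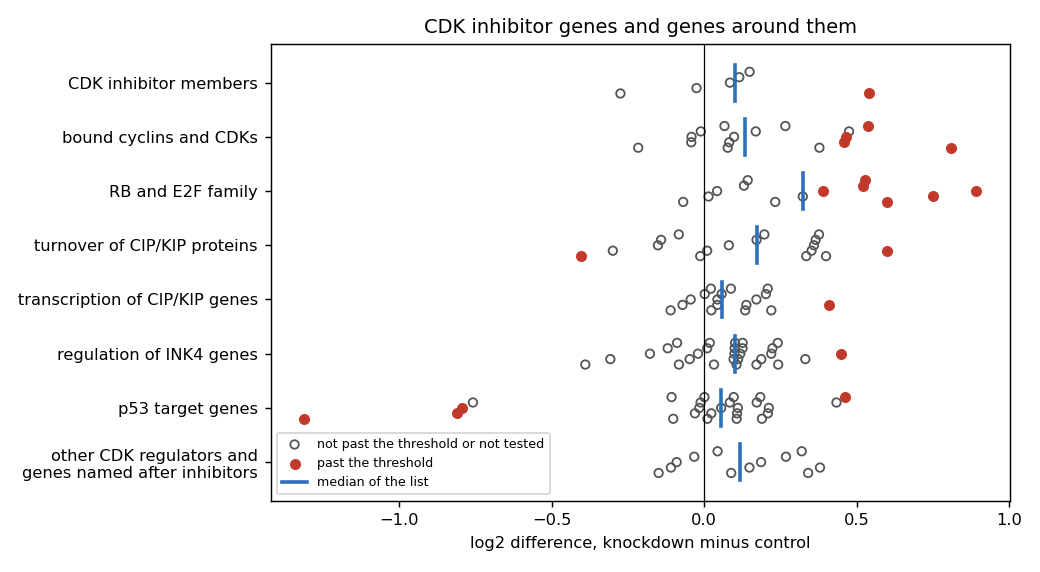
Log2 difference, knockdown minus control (x axis), of every measured gene of the CDK inhibitor families and 7 related lists (y axis); filled red points passed the limma threshold, open points did not or were removed by the variation filter, and blue bars are list medians. The RB and E2F family has the highest median (0.32), and of the CDK inhibitor genes *Cdkn2c* alone is filled.

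Of the measured genes next to each inhibitor gene on the chromosome, the one that passed was *Slc22a18*, where 7.54% of all genes tested changed. This transporter gene neighbours *Cdkn1c* in an imprinted region of chromosome 7. It averaged 8.44 ± 0.18 in knockdown and 8.92 ± 0.11 in control cells (SD, n = 3 each), a log2 difference of -0.48 (adjusted p = 0.0381). It passed in 2 of the 6 limma fits that left out 1 array (adjusted p up to 0.187), which were those without control array 2 and without knockdown array 3. *Kcnq1*, on the other side of *Cdkn1c*, differed by 0.03. Beside *Cdkn2c*, *Faf1* differed by 0.32 (95% interval -0.002 to 0.65) and *9630013D21Rik* by 0.003. *Gpr19* and *Apold1* beside *Cdkn1b* differed by -0.01 and 0.08, *Kri1* and *Ap1m2* beside *Cdkn2d* by -0.03 and 0.11, *Mtap* beside *Cdkn2a* by 0.17 and *Dmrta1* beside *Cdkn2b* by 0.03. Of the genes beside *Cdkn1a*, *Srsf3* differed by 0.24 and *Rab44* by 0.13. *Srsf3*, *Faf1*, *9630013D21Rik* and *Dmrta1* were tested and did not pass. *Kcnq1*, *Gpr19*, *Apold1*, *Kri1*, *Ap1m2*, *Mtap* and *Rab44* were removed by the filter and so were not tested.

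Among 9130 genes past the filter, with clone names, predicted gene models and small RNA genes left out, those with the profile most like *Cdkn2c* over the 6 arrays were *Pgap4*, *Olfr661* and *Ctdsp2* (Pearson r 0.997, 0.996 and 0.996). The profiles most like *Cdkn1b* were those of *Mest*, *Pkn2* and *Mgrn1* (r 0.998, 0.995 and 0.995), and those most like *Cdkn2b* were *Lpcat2*, *Fabp6* and *Letm1* (r 0.989, 0.984 and 0.978). None of these 9 genes passed the test, and the values describe 6 arrays that share the 2 groups.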

How the data were processed

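RNA from 3 *Paupar* knockdown and 3 control N2A cultures, which the study calls biological replicates, was measured on Affymetrix Mouse Gene 1.0 ST arrays from 200 ng of RNA each. The deposited log2 values of 35556 transcript clusters, made by the authors with RMA (background correction, quantile normalisation between arrays and probe summary), were used as given; versions of the authors' tools were not given in the sources used here. Platform annotation gave 21789 clusters 1 symbol, 1621 several and 12146 none, and 21698 were matched to RefSeq (GRCm38.p6), which changed 0 symbols. Clusters with 1 symbol gave 19938 genes.

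Following the study's methods, little varying genes were removed (here the lower 50% by interquartile range, a measure chosen here) and groups were compared with limma 3.58.1 in R 4.3.3 (functions lmFit and eBayes). P-values were adjusted over all 9969 genes by the Benjamini-Hochberg method, with a threshold of 0.05. Members removed by the filter were read from a fit to all named genes. Unless another fit is named, adjusted p-values are those of the filtered limma fit. Differences are knockdown minus control, and standard errors are moderated.

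The members and lists were chosen with earlier results of these data known, so counts over lists are descriptions. Named were all members, up to 4 genes past the threshold of each list (or 2 as values), the nearest measured neighbours and the 3 genes with the most similar profile; other list genes were chosen after their values were seen. The alternatives were the filter, the choice of clusters, array weights, centring, the variance prior, the replicate number as a block and each array left out.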

Additional observations from a re-analysis of the deposited data

How the results depend on the processing

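The direction held under all 16 alternatives for *Cdkn1b*, *Cdkn1c*, *Cdkn2b*, *Cdkn2c* and *Cdkn2d*, and under 13 of 16 for *Cdkn2a*, which turned to 0.0219, 0.000984 and 0.0206 when control array 1, knockdown array 1 and knockdown array 2 were left out (range over the 6 arrays -0.0982 to 0.0219). *Cdkn2c* kept its call under 12 of 16 alternatives, *Cdkn1b* gained one under 1, and no other member gained one. One inhibitor gene passed with all arrays, 0 when all transcript clusters were tested, 2 with array weights, and between 0 and 1 when an array was left out. Over all genes 752 passed, against 0 with all clusters (limma, 3015 with an unadjusted p under 0.05), 5561 with array weights and between 112 and 1240 when an array was left out, namely 241 without control array 1, 785 without control array 2, 112 without control array 3, 194 and 139 without knockdown arrays 1 and 2, and 1240 without knockdown array 3. The cause was not tested. With the replicate number as a replicate block, 680 genes and *Cdkn2c* passed (limma adjusted p = 0.0193). In their deviations from the group means, samples of the same number correlated at -0.34, 0.0956 and 0.0797. Samples of different numbers correlated between -0.372 and 0.443. With 3 arrays per group these values cannot tell whether samples of the same number share a batch. Of the 752 genes, 615 also passed with the block. With arrays centred on the median 257 genes rose and 425 fell, against 238 and 514 in the limma fit without centring. With array weights 2896 rose and 2665 fell, and the log2 difference of *Ccnd3* was 0.284. Of the related genes named, limma adjusted p-values missed the threshold for *Ccne2*, *Ccnd3*, *Dtl* and *Apaf1* without the filter (0.0502, 0.0601, 0.0693 and 0.0584), for *Uhmk1* and *Klf4* with a variance filter (0.0622 and 0.0595), for *Ccnd3*, *Apaf1*, *Uhmk1* and *Klf4* with the block (0.0502, 0.0509, 0.0697 and 0.0714), and for *Uhmk1* with centring (0.0505).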
